A study of Homo sapiens with 12 samples.

Results

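The 10 genes described here encode the chaperones and ATP-dependent proteases of the mitochondrial matrix and the stress relay of the inner membrane: HSPA9, DNAJA3, HSPD1, HSPE1, LONP1, CLPP, CLPX, YME1L1, OMA1 and DELE1. They were chosen by gene symbol, and all 10 were found among the 28278 symbols of the count table. The libraries were made from motor neurons and accompanying cells of the wild-type WA09-Islet1-GFP line, derived from human embryonic stem cells, in which GFP marks cells that express the motor neuron transcription factor ISL1. The groups were 3 libraries each of control GFP-positive and control GFP-negative cells, which received the solvent DMSO for 16 h, and 3 each of treated GFP-positive and treated GFP-negative cells, which received cis-chlordane, an organochlorine insecticide, at 10 µM in the labels for 16 h. All cultures were dissociated with trypsin and sorted by FACS on GFP before RNA extraction, and all came from this line alone. The sort made the fractions but did not fix every cell's type, and the GFP-negative fraction is a mixture. The labels number the libraries as biological replicates of one line, so the p-values measure the spread between cultures of that line.

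Most mitochondrial proteins are made in the cytosol, imported unfolded and then folded by matrix chaperones. HSPA9 (mortalin, the matrix Hsp70) pulls precursors through the inner membrane and passes them to the Hsp60 chamber formed by HSPD1, whose lid is HSPE1 (Hsp10). HSPA9 works with J-domain partners, of which DNAJA3 is one. Proteins that fail to fold are degraded in the matrix by LONP1 or by the CLPX unfoldase with the CLPP peptidase chamber, and in the inner membrane by YME1L1, the protease that faces the intermembrane space. OMA1 is a metalloprotease of the inner membrane that becomes active when mitochondria are stressed. It cleaves DELE1, whose fragment activates the kinase EIF2AK1 (HRI) in the cytosol, and EIF2AK1 in turn starts the integrated stress response through eIF2alpha and ATF4. OMA1 and DELE1 are controlled to a large extent by cleavage of the proteins, which counts of RNA do not measure.

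The libraries held 23414935 to 38347050 counts assigned to genes. The GFP label was borne out by most motor neuron markers, but not by all. The summed level of 10 markers ran from 2327 to 2909 CPM (counts scaled to library size by TMM) in control GFP-positive libraries and from 424 to 461 CPM in control GFP-negative libraries, and none of the 10 was at 0 in every library of a group. In GFP-positive against GFP-negative controls, 8 of the 10 were higher and 1 was lower, by a log2 difference of -1.31. Between treated fractions 6 were higher and 1 lower. Of all genes tested, 17.1% were higher and 23.1% lower between control fractions, and 24.9% higher and 24.9% lower between treated fractions. After treatment the same sum ran from 772 to 1145 CPM and from 159 to 199 CPM, and 9 of the 10 markers fell in GFP-positive cells (adjusted p under 0.05, edgeR). The summed level of 10 genes of dividing cells ran from 176 to 228 CPM in control GFP-positive and from 1448 to 1512 CPM in control GFP-negative libraries, and from 99.9 to 127 CPM and 457 to 544 CPM after treatment. The summed level of 13 progenitor and glial markers ran from 2906 to 3264 CPM and from 6030 to 8132 CPM in the controls, and from 2340 to 3180 CPM and 7302 to 8304 CPM after treatment. That sum hides falls of single markers. In GFP-negative cells 7 of 11 tested were lower after treatment and 2 higher (median log2 fold change -1.26). In GFP-positive cells 6 of 10 tested were lower and 2 higher (median -0.61). Of all genes tested for treatment, 24.4% were lower and 26.5% higher in GFP-positive cells, and 16.2% lower and 15.3% higher in GFP-negative cells. The summed level of 10 mesenchymal and fibroblast-like markers ran from 292 to 364 CPM and from 1084 to 1157 CPM in the controls, and from 63.5 to 101 CPM and 577 to 909 CPM after treatment. The ranges of all these sums were apart between fractions. Between treatments the progenitor and glial sum overlapped in both fractions, and the other sums did not. The part of these markers in the values below was not tested. In such bulk samples fewer cells of a type and less RNA per cell cannot be told apart.

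HSPD1 and HSPE1 lie on opposite strands of chromosome 2, HSPD1 on the minus strand (hg38 chr2:197486584-197516737) and HSPE1 on the plus strand (chr2:197500140-197503449). From the starts shown here they run away from each other, but the full annotated span of HSPD1 encloses HSPE1. Their exons share 135 bases on opposite strands. RefSeq start-site windows, which hold 250 bases before and 50 after a start on GRCh38.p14 (the build hg38), were found for 8 of the 10 members. They are shown for this pair because both genes start from a common stretch of DNA and because their levels are set side by side below. One of the HSPD1 windows (chr2:197500225-197500524, minus strand) and the HSPE1 window (chr2:197500129-197500428, plus strand) have 204 bases in common, printed in capitals, with the annotated starts 105 bases apart. The other HSPD1 window (chr2:197499791-197500090, minus strand) has in capitals a match to GAANNTTC, the paired core of a heat shock element.
HSPD1 start shared with HSPE1: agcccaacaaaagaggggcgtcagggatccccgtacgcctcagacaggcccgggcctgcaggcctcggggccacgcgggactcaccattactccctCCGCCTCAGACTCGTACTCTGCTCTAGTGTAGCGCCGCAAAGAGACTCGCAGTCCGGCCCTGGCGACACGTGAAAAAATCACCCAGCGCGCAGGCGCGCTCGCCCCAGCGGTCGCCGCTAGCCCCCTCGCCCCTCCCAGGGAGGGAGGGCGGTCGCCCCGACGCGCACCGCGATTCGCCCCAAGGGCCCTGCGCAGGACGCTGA
HSPE1: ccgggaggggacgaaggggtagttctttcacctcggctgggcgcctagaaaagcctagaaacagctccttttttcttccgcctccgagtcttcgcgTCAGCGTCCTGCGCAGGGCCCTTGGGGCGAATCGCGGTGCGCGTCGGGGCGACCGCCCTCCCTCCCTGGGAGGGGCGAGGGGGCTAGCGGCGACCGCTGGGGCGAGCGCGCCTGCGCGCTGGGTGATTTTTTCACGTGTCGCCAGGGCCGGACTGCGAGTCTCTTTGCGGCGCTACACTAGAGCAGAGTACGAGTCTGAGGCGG
HSPD1 other start: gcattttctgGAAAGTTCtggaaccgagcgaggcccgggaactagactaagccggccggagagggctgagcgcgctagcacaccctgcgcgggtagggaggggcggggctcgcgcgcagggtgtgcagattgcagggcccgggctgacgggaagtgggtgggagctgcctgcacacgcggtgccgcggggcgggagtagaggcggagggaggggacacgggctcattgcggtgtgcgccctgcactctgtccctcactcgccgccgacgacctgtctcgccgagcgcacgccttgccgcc
The motif GAANNTTC, which reads the same on both strands, was found in 6.77% of 35116 RefSeq windows of 300 bases, and among the members in that HSPD1 window alone. TGATGNAA, the core of the composite site of C/EBP and ATF factors such as CHOP and ATF4, was searched on both strands. It was found in 3.62% of all windows and in 0 windows of the 8 members, those of HSPA9 and LONP1 included. The absence of these letters says nothing of sites outside the windows.

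Levels were compared between genes per kb of the MANE transcript, the reference isoform of a gene. In control GFP-positive libraries HSPD1 had the highest level at 63.1 ± 7.15 CPM per kb (SD, n = 3), before CLPP at 52.5 ± 10.2, HSPA9 at 45.7 ± 5.45 and LONP1 at 41.1 ± 3.95, and the ranges of neighbours in this order overlapped. HSPE1 (18.5), DELE1 (16.7) and YME1L1 (16.4) followed with overlapping ranges, then CLPX at 4.97 ± 0.20 CPM per kb. OMA1 at 0.601 and DNAJA3 at 0.514 CPM per kb were the lowest. OMA1, DNAJA3, HSPE1 and HSPD1 share sequence with other genes, pseudogenes or contigs, as given below. YME1L1 shares 6.0% of its exon bases with MASTL on the opposite strand. Reads may thus be missing from the levels of these members, which was not tested. In treated GFP-positive libraries HSPA9 stood first at 212 ± 14.95 CPM per kb, followed by LONP1 at 137 ± 10.2 and HSPD1 at 103 ± 13.9, and these ranges did not overlap. In control GFP-negative libraries HSPD1 was also first, at 121 ± 12.3 CPM per kb, clear of CLPP at 54.7 ± 8.52. In treated GFP-negative libraries HSPA9 was first at 221 ± 9.22 CPM per kb, while LONP1 (155 to 181) and HSPD1 (137 to 181) overlapped. CLPX stood at 4.25 to 5.28 CPM per kb on average in every group, against 52.0 to 80.7 for its partner CLPP.

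**Figure D1:**
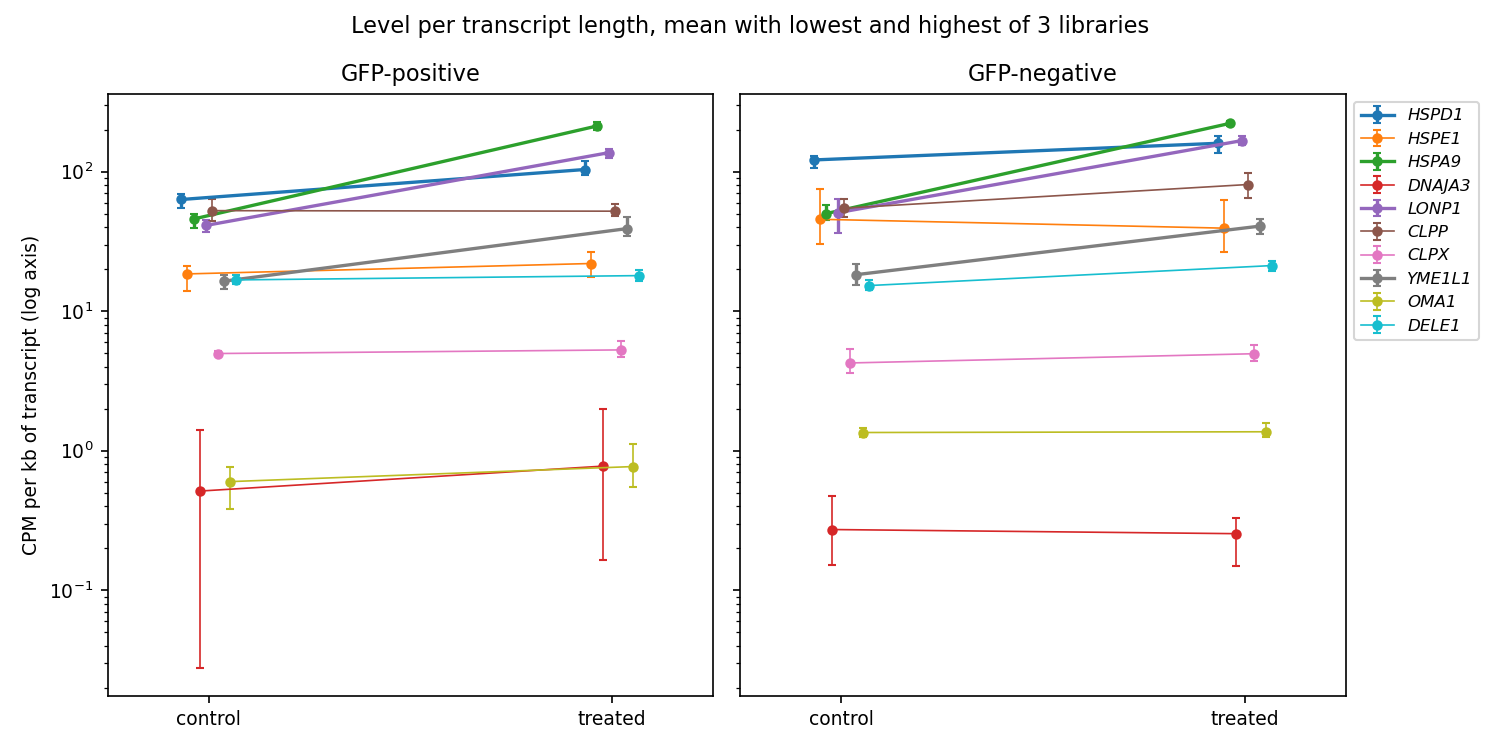
Level of each member in CPM per kb of transcript on a log axis, in control and treated libraries of each sort fraction, with the mean of 3 libraries as points and the lowest and highest as bars. HSPA9 moved from rank 3 to rank 1 in GFP-positive cells and from rank 4 to rank 1 in GFP-negative cells, with HSPD1 moving from rank 1 to rank 3 in both.

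The first question was how the members responded to cis-chlordane in GFP-positive cells, the fraction with the motor neurons. HSPA9, LONP1 and YME1L1 rose by more than 2-fold, and HSPD1 rose by less. The other 6, namely HSPE1, DNAJA3, CLPP, CLPX, OMA1 and DELE1, did not pass the test. In all, 4 of 10 members were higher and 0 lower at an adjusted p under 0.05, where 26.5% of the 15333 genes tested were higher and 24.4% lower. Past the 2-fold limit that defined a DEG (differentially expressed gene) were 3 of 10, against 12.8% of all genes that were higher DEGs. The median log2 fold change was 0.53 over the members and 0.03 over all genes tested.

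**Figure D2:**
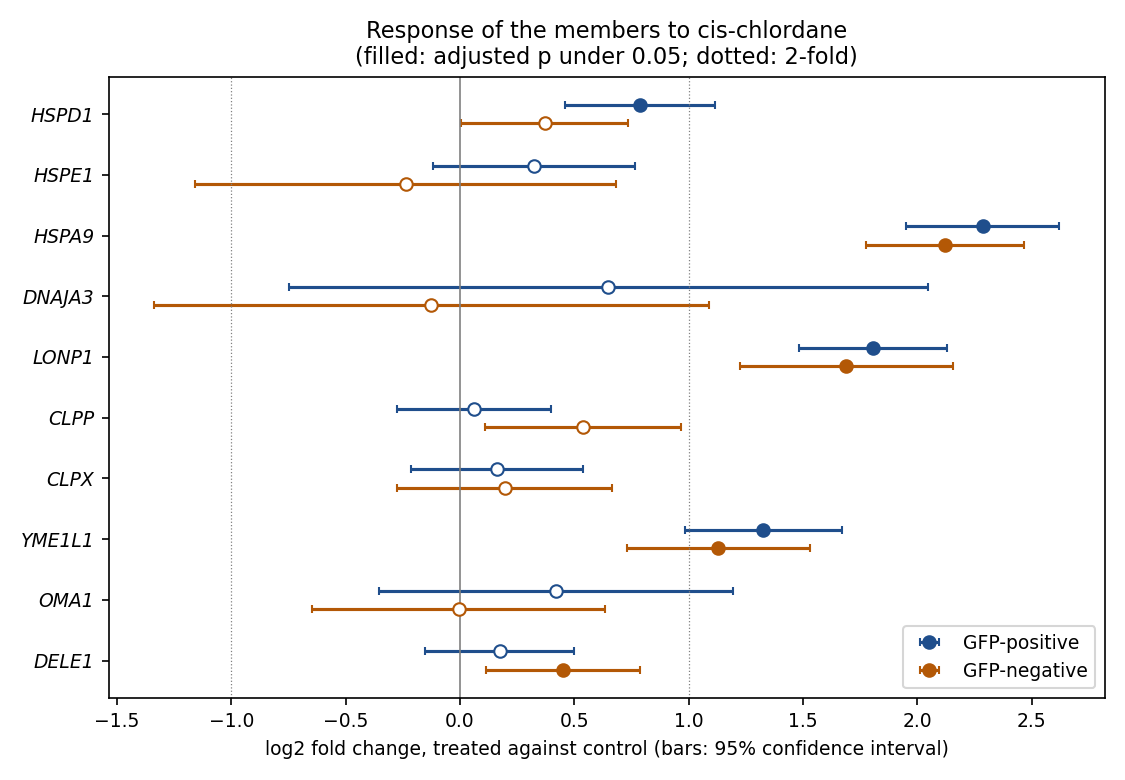
Log2 fold change of each member, treated against control, in GFP-positive (blue) and GFP-negative (orange) cells, with 95% confidence intervals, filled where the adjusted p was under 0.05, and dotted lines at 2-fold. HSPA9 (2.29 and 2.12), LONP1 (1.81 and 1.69) and YME1L1 (1.33 and 1.13) lie beyond the 2-fold line in both fractions.

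HSPA9 (chr5:138553756-138575675, minus strand) had the largest change of the members in the main fit of each fraction. Its level was 210, 174 and 219 CPM in the 3 control GFP-positive libraries and 869, 933 and 1000 CPM in the 3 treated ones. In GFP-negative cells it was 252, 211 and 197 CPM in controls and 971, 935 and 1016 CPM after treatment. Every treated library lay far above every control library, and the control levels of both fractions overlapped. The log2 fold change was 2.29 (SE 0.16, adjusted p = 9.46e-14, edgeR) in GFP-positive cells, a 4.88-fold rise, and 2.12 (SE 0.15, adjusted p = 2.49e-05) in GFP-negative cells, a 4.35-fold rise. This first place depended on the setting. With the trend of log2 CPM with GC content removed in each library, HSPA9 was at 1.98 and LONP1 at 2.19 in GFP-positive cells. In GFP-negative cells they were then at 1.95 and 1.96.

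DNAJA3 (chr16:4425805-4456775, plus strand), a J-domain partner of HSPA9, was barely counted. It had 2, 9 and 119 counts in the control and 179, 16 and 17 counts in the treated GFP-positive libraries, and 39, 14 and 13 against 18, 11 and 25 counts in GFP-negative cells. A single library in each GFP-positive group was high, and the groups overlapped. Its log2 fold change of 0.65 in GFP-positive cells had a 95% confidence interval from -0.75 to 2.05 and an adjusted p of 0.447, while it was -1.54 (adjusted p = 0.0274) without treated GFP-positive replicate 1 and 3.59 (adjusted p = 0.00196) without control GFP-positive replicate 3, so no direction is read from it. In hg38 100% of its MANE transcript also matches an alternate contig, so that reads of this gene can have a second place to map, and the counts are uncertain.

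HSPD1, the Hsp60 subunit, was at 146, 124 and 155 CPM in control GFP-positive libraries and at 212, 216 and 268 CPM after treatment. The groups did not overlap, and the log2 fold change was 0.79 (SE 0.16, adjusted p = 0.000113), a 1.73-fold rise. With the trend of log2 CPM with GC content removed in each library it was 0.45 (adjusted p = 0.00538). In GFP-negative cells HSPD1 was at 288, 240 and 288 CPM in controls and 360, 307 and 407 CPM after treatment. These groups did not overlap either, but the log2 fold change of 0.37 (95% confidence interval 0.0054 to 0.74) did not pass after adjustment (adjusted p = 0.112).

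HSPE1, the lid of the Hsp60 chamber, was at 11.8, 7.76 and 11.3 CPM in control and 9.73, 12.1 and 14.9 CPM in treated GFP-positive libraries, which overlapped (log2 fold change 0.32, 95% confidence interval -0.12 to 0.76, adjusted p = 0.218). In GFP-negative cells it was at 41.5, 17.7 and 16.8 CPM in controls and 16.1, 14.7 and 34.9 CPM after treatment, with 1 high library in each group. The log2 fold change there was -0.24 (95% confidence interval -1.16 to 0.68). HSPE1 shares 34.5% of its MANE transcript with the read-through gene HSPE1-MOB4, listed at 0 in every library, and GENCODE names 26 pseudogenes of HSPE1 and 18 of HSPD1, so that reads shared with those copies may be missing or misplaced.

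LONP1 (chr19:5691834-5720572, minus strand), the main ATP-dependent protease of the matrix, was at 127, 139 and 115 CPM in control GFP-positive libraries and at 447, 434 and 387 CPM in treated ones. In GFP-negative cells the controls were at 195, 163 and 113 CPM and the treated libraries at 558, 508 and 480 CPM. The treated and control libraries were widely apart in both fractions. The log2 fold change was 1.81 (SE 0.16, adjusted p = 1.67e-11) in GFP-positive cells, a 3.50-fold rise, and 1.69 (SE 0.21, adjusted p = 0.000392) in GFP-negative cells, a 3.23-fold rise.

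The second matrix protease did not move with LONP1 in GFP-positive cells. CLPP (chr19:6361531-6370242, plus strand) was at 118, 154 and 107 CPM in control and 116, 142 and 119 CPM in treated GFP-positive libraries. The log2 fold change was 0.06 with a 95% confidence interval from -0.28 to 0.40 (adjusted p = 0.785), which leaves no room for a rise like that of LONP1. CLPX (chr15:65148219-65185342, minus strand), its unfoldase, was at 23.3, 22.4 and 24.3 CPM in control and 23.5, 22.1 and 28.7 CPM in treated GFP-positive libraries, with a log2 fold change of 0.16 (95% confidence interval -0.22 to 0.54, adjusted p = 0.489). In GFP-negative cells CLPP was at 154, 128 and 114 CPM in controls and 190, 156 and 237 CPM after treatment. All treated libraries were above the controls, by a log2 fold change of 0.54 (SE 0.19), with an adjusted p of 0.0578 in edgeR. CLPP passed there in DESeq2 (adjusted p = 0.0353), with library size alone (0.0484), with all 12 libraries in 1 fit (0.0260) and with the GC trend removed (0.0145, and 0.0231 with the replicate block added). It also passed without control replicate 1 (0.0307) or treated replicate 2 (0.0359). CLPX in GFP-negative cells had a log2 fold change of 0.19 (95% confidence interval -0.28 to 0.67).

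YME1L1 (chr10:27110111-27155266, minus strand), the inner membrane protease, was at 70.0, 60.4 and 75.8 CPM in control and 147, 146 and 198 CPM in treated GFP-positive libraries. In GFP-negative cells it was at 64.3, 73.3 and 91.9 CPM in controls and 171, 149 and 191 CPM after treatment. The groups were clearly apart in both fractions, with log2 fold changes of 1.33 (SE 0.17, adjusted p = 4.93e-08) and 1.13 (SE 0.18, adjusted p = 0.00140), rises of 2.51-fold and 2.19-fold. With the GC trend removed, YME1L1 rose by 0.94 on the log2 scale in each fraction and still passed the test, under the 2-fold limit.

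OMA1 (chr1:58415384-58546802, minus strand), which shares substrates with YME1L1, had 19, 49 and 38 counts in control and 34, 72 and 46 counts in treated GFP-positive libraries, and 64 to 80 counts in all GFP-negative libraries. The levels overlapped between treatments, at 0.708 to 1.42 CPM against 1.02 to 2.07 CPM in GFP-positive cells. The log2 fold change was 0.42 (95% confidence interval -0.36 to 1.20) in GFP-positive and -0.0066 (95% confidence interval -0.65 to 0.63) in GFP-negative cells. At this depth a 2-fold change could not be told from no change in GFP-positive cells. OMA1 shares 13.4% of its MANE transcript with exons of DAB1 on the same strand, a gene with 172 to 566 counts per library.

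DELE1 (chr5:141923855-141942047, plus strand), the substrate of OMA1 that relays stress to the cytosol, was at 76.9, 88.7 and 80.9 CPM in control and 95.9, 88.5 and 80.1 CPM in treated GFP-positive libraries, and these overlapped (log2 fold change 0.17, 95% confidence interval -0.15 to 0.50, adjusted p = 0.379). In GFP-negative cells it was at 70.1, 82.2 and 72.2 CPM in controls and 103, 95.8 and 113 CPM after treatment, and it passed the test by a small margin (log2 fold change 0.45, SE 0.15, adjusted p = 0.0453). That call was lost when any 1 of the 6 libraries was left out (adjusted p from 0.0565 to 0.144), with scaling by library size alone (adjusted p = 0.0694) and without the filter on low counts (adjusted p = 0.0645). In GFP-negative cells 4 of 10 members were thus higher and 0 lower (background 15.3% higher and 16.2% lower of 15513 genes), and 3 of 10 were higher DEGs (background 8.59%).

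**Figure D3:**
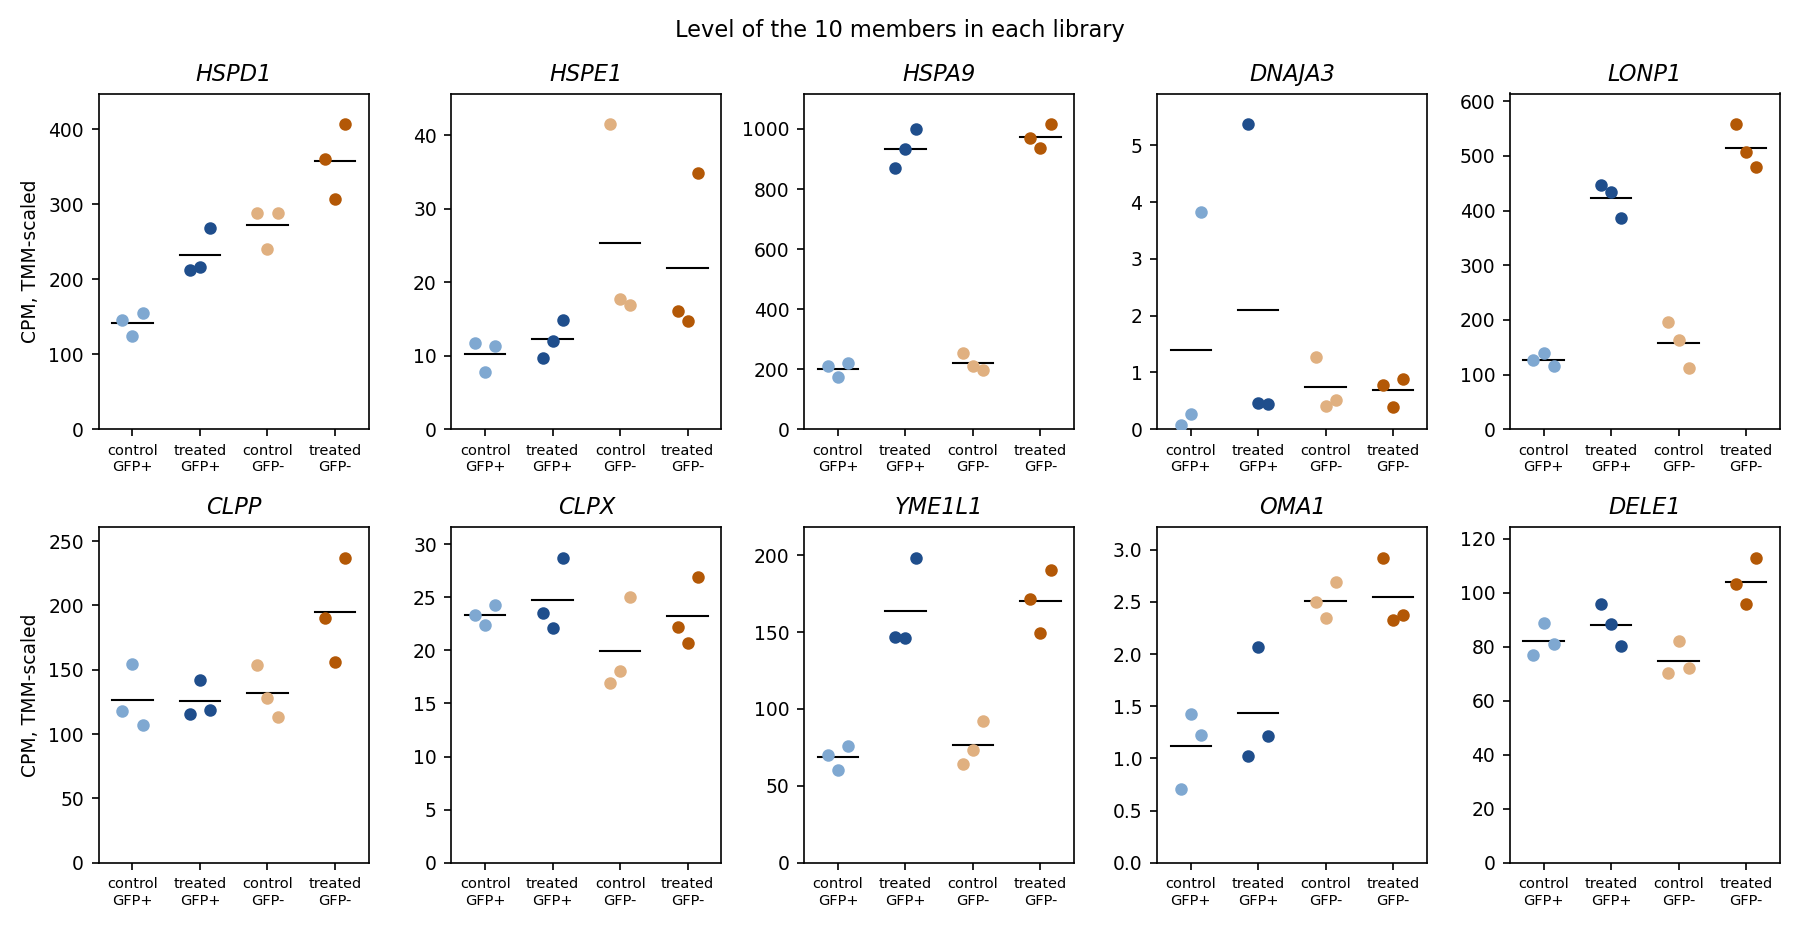
CPM, scaled by TMM, of each member in the 12 libraries, 1 panel per gene with its own axis from 0, points for libraries and a black line for the mean of 3. HSPA9, LONP1, YME1L1 and HSPD1 separate treated from control libraries in both fractions, and CLPP and DELE1 do so in GFP-negative cells alone. HSPD1 and CLPP did not pass the test in GFP-negative cells. The share of all genes that separate in this way was not counted. HSPD1, HSPE1 and OMA1 separate the control fractions, and DNAJA3 and HSPE1 have single high libraries.

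The difference between the responses of the fractions was tested by the interaction of treatment and sort, and 0 of 10 members passed it in edgeR, with 0.968% and 1.22% of 16226 genes passing in either direction (response more positive and more negative in GFP-positive cells). DESeq2 called 0 of the 9 members for which it gave an adjusted p, which DNAJA3 lacked. The only member with an unadjusted p under 0.05 was CLPP, with an interaction of -0.57 (95% confidence interval -1.12 to -0.01, unadjusted p = 0.0449, adjusted p = 0.285). For HSPA9 the difference of the log2 fold changes was 0.08 (95% confidence interval -0.33 to 0.49) and for LONP1 0.03 (-0.49 to 0.55). For DELE1 it was -0.36 (-0.78 to 0.05), so that its response was not shown to differ between fractions although it passed the test in GFP-negative cells alone.

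The balance among members was followed as the ratio of counts within each library, a measure that library scaling does not change. HSPA9 to HSPD1 was 1.40 to 1.44 in control and 3.73 to 4.31 in treated GFP-positive libraries, a 2.84-fold higher ratio. In GFP-negative cells it was 0.684 to 0.880 in controls and 2.50 to 3.05 after treatment, 3.39-fold higher. Neither pair of ranges overlapped, and each gave p = 0.1 in the two-sided exact permutation test, the smallest that 3 against 3 libraries allow (0.2 after adjustment over the 10 ratios tested). HSPD1 to HSPE1, chaperonin to lid, was 12.4 to 16.0 in control and 17.9 to 21.8 in treated GFP-positive libraries (exact p = 0.1), but 6.94 to 17.1 and 11.7 to 22.3 in GFP-negative ones, where it overlapped (exact p = 0.3). OMA1 to YME1L1 was 0.0293 to 0.0388 in control and 0.0125 to 0.0171 in treated GFP-negative libraries (exact p = 0.1), and overlapped in GFP-positive ones at 0.0101 to 0.0236 and 0.00610 to 0.0142 (exact p = 0.2). CLPX to CLPP overlapped between treatments in both fractions (exact p = 0.7 and 0.4). DELE1 to OMA1 overlapped in GFP-positive cells (exact p = 0.5) and was 26.8 to 34.95 in control and 35.3 to 47.6 in treated GFP-negative libraries (exact p = 0.1).

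The genes that act downstream of the relay were measured next to it. Of 17 listed genes of the integrated stress response arm, 16 were tested in GFP-positive cells and all 16 were higher, 13 of them by 2-fold or more, with a median log2 fold change of 2.28. In GFP-negative cells 15 of 16 were higher and 0 lower, with a median of 2.51. Of all genes tested, 26.5% were higher in GFP-positive and 15.3% in GFP-negative cells, and 12.8% and 8.59% were higher DEGs. The list was chosen with earlier results of these data known. The integrated stress response arm can also be started by the other eIF2alpha kinases, and the RNA counts do not tell which kinase was active. EIF2AK1, the kinase that DELE1 activates, was at 136 to 150 CPM in control and 171 to 201 CPM in treated GFP-positive libraries (log2 fold change 0.42, SE 0.16, adjusted p = 0.0236) and rose by 0.46 in GFP-negative cells. Both calls of EIF2AK1 were lost when the GC trend was removed, at 0.24 (adjusted p = 0.122) in GFP-positive and 0.37 (adjusted p = 0.0719) in GFP-negative cells, and when single libraries were left out. In GFP-positive cells these were control replicate 1 and treated replicates 1 and 3 (adjusted p up to 0.101), and in GFP-negative cells control replicates 2 and 3 and treated replicates 1 and 2 (up to 0.141). ATF4, the central transcription factor of the response, was at 353 to 457 CPM in control and 1294 to 1553 CPM in treated GFP-positive libraries, and its log2 fold change was 1.87 (adjusted p = 1.44e-11) there and 1.96 in GFP-negative cells. ATF5, a factor linked to mitochondrial stress, changed by 3.08 and 2.42 on the log2 scale, and DDIT3, which encodes CHOP, by 3.62 and 3.05. The log2 fold changes of this list ran from 0.42 to 7.61 in GFP-positive cells. That range is too wide to set members apart: HSPD1 (0.79) and YME1L1 (1.33) lay inside it as well as HSPA9 and LONP1. Of the list, GDF15, a secreted stress hormone named here after its values were seen, was the only gene to pass the interaction test (2.47, adjusted p = 0.0140).

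The partners of the matrix chaperones did not share the change of HSPA9 as a group. Of 12 listed, 9 were tested in GFP-positive cells, of which 4 were higher and 1 lower, with a median log2 fold change of -0.0030. Among all genes tested there, 26.5% were higher and 24.4% lower. GRPEL2, a nucleotide exchange factor of HSPA9, changed by 1.50 (adjusted p = 1.53e-07). TIMM44, which ties HSPA9 to the import channel, changed by 1.08 (adjusted p = 9.55e-07), and DNAJC19, an inner membrane J-protein, by 0.81. In GFP-negative cells 2 of 9 were higher and 1 lower, and GRPEL2 (0.92) and TIMM44 (0.80) were the 2 higher ones, though leaving out control replicate 2 or treated replicate 1 or 3 took away the call of GRPEL2 (adjusted p up to 0.0746). Among 13 other mitochondrial proteases and peptidases tested, 5 were higher and 1 lower in GFP-positive cells, led by XPNPEP3 (1.01), IMMP1L (0.74), a subunit of the inner membrane peptidase, and PMPCB (0.68), a subunit of the presequence peptidase. The calls of DNAJC19, IMMP1L and PMPCB were lost with the GC trend removed, at 0.30, 0.22 and 0.18. In GFP-negative cells 2 of the 13 were higher and 0 lower, where 15.3% of all genes tested were higher and 16.2% lower.

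Of 13 substrates of OMA1 and YME1L1 and scaffold genes of the inner membrane, 3 were higher and 4 lower in GFP-positive cells (median -0.14). Among all genes tested there, 26.5% were higher and 24.4% lower. TIMM17A, an import subunit that YME1L1 degrades, changed by 0.83 (0.55 without treated replicate 3) and PHB1, a prohibitin, by -0.72. CHCHD10, an intermembrane space protein, changed by -1.90 (adjusted p = 0.0273), but ranged from 0.257 to 12.9 CPM in control and from 0.0263 to 5.31 CPM in treated GFP-positive libraries, and it was -1.16 (adjusted p = 0.410) without control replicate 2 and -6.06 without treated replicate 2. DESeq2 gave CHCHD10 an adjusted p of 0.425. Of 20 genes of the TOM and TIM translocases, 5 were higher and 5 lower (median 0.09), with TIMM9 (1.12), TOMM20 (1.11) and TOMM5 (1.03) changing most. In GFP-negative cells 1 of 13 substrates and scaffold genes and 2 of 20 translocase genes were higher, and 0 of either list were lower. Among all genes tested there, 15.3% were higher and 16.2% lower.

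**Figure D4:**
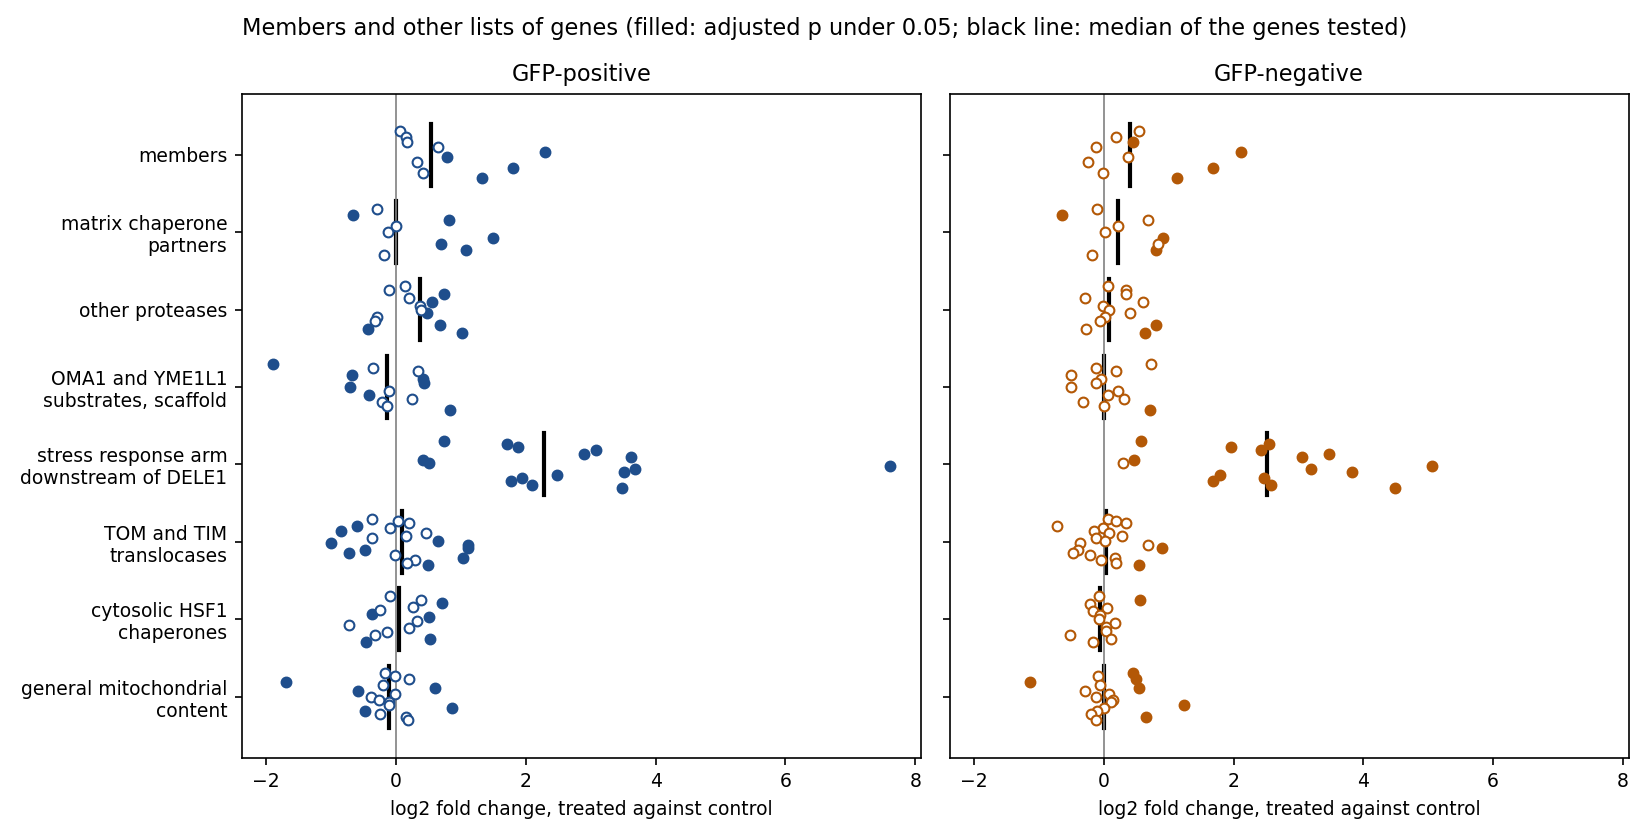
Log2 fold change of each tested gene, treated against control, for the members and the other lists in GFP-positive (left) and GFP-negative (right) cells, filled where the adjusted p was under 0.05, with the median as a black line. The integrated stress response arm lies at medians of 2.28 and 2.51, and the members at 0.53 and 0.41, with HSPA9, LONP1 and YME1L1 apart from the rest.

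Cytosolic chaperones that respond to HSF1 were counted as a comparison. Of 14 tested in GFP-positive cells, 3 were higher and 2 lower (median 0.05), and the 3 higher ones were CHORDC1 (0.71), HSPH1 (0.52) and HSP90AA1 (0.50). All 3 lost their call with the GC trend removed, HSPH1 at 0.0011. Without treated replicate 3 HSPH1 was at 0.066 (adjusted p = 0.783) and HSP90AA1 at 0.31 (adjusted p = 0.151). HSPH1 also lost its call without control replicate 1 or 2 and was at 0.80 without control replicate 3, and HSP90AA1 lost its call without control replicate 2. Of 13 tested in GFP-negative cells, 1 was higher and 0 lower. Among all genes tested, 26.5% were higher and 24.4% lower in GFP-positive cells, and 15.3% and 16.2% in GFP-negative cells. General mitochondrial genes, such as citrate cycle enzymes, carriers and porins, were 2 higher and 3 lower of 17 in GFP-positive cells (median -0.11), and 5 higher and 1 lower in GFP-negative cells (median 0.01). ETFB, a subunit of the electron transfer flavoprotein, changed by -1.70 (adjusted p = 1.06e-09), TFAM, which packages mitochondrial DNA, by 0.85 (0.56 without treated replicate 3), and IDH3A, of the citrate cycle, by 0.60, and the calls of TFAM and IDH3A were lost with the GC trend removed (0.28 and 0.30).

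The sort fractions were compared with each other in the control cultures, which share their libraries with the treatment comparisons above. HSPD1, HSPE1 and OMA1 were lower in GFP-positive than in GFP-negative cells, each by more than 2-fold, and 0 members were higher. This was 3 of 10 lower, where 23.1% of 15404 genes were lower and 17.1% higher, and 3 of 10 lower DEGs, where 15.3% of all genes were. The log2 difference was -1.06 for HSPD1 (SE 0.15, adjusted p = 0.000440), -1.41 for HSPE1 (SE 0.34, adjusted p = 0.00840) and -1.27 for OMA1 (SE 0.35, adjusted p = 0.0153). For each of the 3, every GFP-negative library was above every GFP-positive one. Leaving out control GFP-positive replicate 2 raised the adjusted p of HSPE1 to 0.0598, and leaving out control GFP-positive replicate 1 raised that of OMA1 to 0.0595. Without control GFP-negative replicate 1, the log2 difference of HSPE1 was -0.87. The genes of dividing cells went the same way, with 10 of 10 lower in GFP-positive cells. So did 10 of 10 tested progenitor and glial markers and 7 of 8 tested mesenchymal and fibroblast-like markers. Of the motor neuron markers, 8 of 10 were higher and 1 lower. The part of these markers in the differences of the members was not tested. LONP1 had a log2 difference of -0.41 (adjusted p = 0.102), and passed when the fractions were paired by replicate number (-0.39, adjusted p = 0.0291) and without control GFP-negative replicate 3 (-0.58, adjusted p = 0.0102). HSPA9 (-0.24), YME1L1 (-0.27), CLPP (-0.17), CLPX (0.11), DELE1 (0.02) and DNAJA3 (0.81) did not pass.

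After treatment, HSPD1, HSPE1 and CLPP were lower in GFP-positive than in GFP-negative cells, 3 of 10, and 0 were higher, where 24.9% of 15416 genes were lower and 24.9% higher. HSPD1 differed by -0.60 (SE 0.15, adjusted p = 0.00635), HSPE1 by -0.81 (SE 0.29, adjusted p = 0.0353) and CLPP by -0.61 (SE 0.16, adjusted p = 0.00838). OMA1 differed by -0.80 with an adjusted p of 0.0589, and with the fractions paired by replicate number by -0.84 with an adjusted p of 0.0174. It also passed with the GC trend removed (adjusted p = 0.0406, and 0.0196 with the pairing added), with at least 10 counts in every library (adjusted p = 0.0450) and without treated GFP-positive replicate 2 (-1.18, adjusted p = 0.0152). The call of CLPP was lost with the GC trend removed (-0.29, adjusted p = 0.167), and that of HSPE1 when treated GFP-negative replicate 3 was left out (-0.32, adjusted p = 0.251) or treated GFP-positive replicate 1 or 2 (adjusted p = 0.136 and 0.0893). HSPE1 also lost its call with library size alone, with the GC trend removed and with all 12 libraries in 1 fit (adjusted p from 0.0627 to 0.0716). With the fractions paired by replicate number HSPE1 kept its call (-0.73, adjusted p = 0.000431). HSPA9 (-0.04) and LONP1 (-0.26), the 2 members with the largest response, did not pass.

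Over the 12 libraries, HSPD1 and HSPE1 had a Pearson correlation of log2 CPM of 0.73, and of 0.70 after the group means were taken out. HSPA9 and LONP1 had one of 0.97 over the libraries and of 0.24 after the group means were taken out. These are descriptions: the 12 libraries fall into 4 groups of 3, and those of a group share treatment and sort. Among 9334 protein-coding genes with a mean of at least 10 CPM, those with the pattern most like that of HSPA9 were KDELR2 (0.99), INHBE (0.99) and PRNP (0.99), and for LONP1 they were GPT2 (0.997), TIMM44 (0.99) and SLC3A2 (0.99). For HSPD1 they were ERI1, IKBIP and HAT1 (0.97 to 0.98), and for DELE1, with lower values, APBA3, HGS and ATG9A (0.93 to 0.95).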

How the data were processed

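The authors mapped single-end reads of stranded mRNA libraries to hg38 with HISAT2 and, per the labels, counted them with featureCounts. The deposited counts are whole numbers per gene symbol without normalization, and 0 per-sample columns were left unused. The reads were mapped as reverse-stranded, and the strand setting of featureCounts and its treatment of multi-mapped reads were not given in the sources used here. Treatment was read from the treatment label, since the titles of treated libraries also say untreated. The labels give 10 µM, the methods 16 µM.

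Counts were fitted with edgeR 4.0.16 in R 4.3.3: TMM scaling, filterByExpr (minimum count 10, minimum total 15) and the quasi-likelihood F-test and p-values adjusted by Benjamini-Hochberg across every tested gene, on the 6 libraries of a comparison and on 12 for the interaction. A gene passed at an adjusted p under 0.05, and a DEG also changed by 2-fold. Confidence intervals are 95%. Ratios of counts were tested by exact permutation. Alternatives were DESeq2 1.42.0 (Wald test), scaling by RLE or by library size alone, the filter left out or replaced by 10 counts per library, a block for the replicate number, removal of a loess GC trend (span 0.5), all 12 libraries in 1 fit, and each library left out. Only the fits of the treatment response in GFP-positive cells and of the interaction were tested on simulated counts. In each, 200 of 200 genes given a change were recovered, with 9 and 8 false calls.

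Sort fractions with the same treatment and number were taken to come from 1 culture, because cultures were sorted into both fractions and the labels give both the same biological replicate number, but the labels do not state it. Within groups, their residuals correlated at 0.085 to 0.281 in controls and 0.161 to 0.356 in treated libraries over 16226 genes, and each of the 6 libraries of a comparison correlated best with its own number. The main sort and interaction fits did not use this pairing, which entered only with the replicate block. Replicates differed by more than counting error in each pair, with a chi-square per gene of at least 22.5. Gene positions and transcripts came from GENCODE release 44, not the authors' annotation, and minimap2 2.31 placed transcripts on alternate contigs. Figures used matplotlib 3.10.9.

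Genes named are the members, ATF4, ATF5, DDIT3, EIF2AK1, up to 3 genes of each other list with the largest change among those that passed in GFP-positive cells, and the 3 genes most like HSPD1, HSPA9, LONP1 and DELE1. The members and lists were chosen with earlier results of these data known.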

Additional observations from a re-analysis of the deposited data

How the results depend on the processing

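For HSPA9, LONP1 and YME1L1 the treatment response kept its direction and its call in both fractions under each alternative run, as did that of HSPD1 in GFP-positive cells. Leaving out single libraries gave 2.19 to 2.34 for HSPA9, 1.73 to 1.87 for LONP1, 1.16 to 1.39 for YME1L1 and 0.66 to 0.85 for HSPD1 in GFP-positive cells. The number of members that passed ran from 4 to 5 in GFP-positive and 3 to 4 in GFP-negative cells with a library left out, 2 to 4 in both sort comparisons and 0 for the interaction, and the number of members past 2-fold in the control sort comparison from 1 to 3, with 1 left without control GFP-positive replicate 2. Scaling by library size alone moved the median of all genes from 0.03 to 0.14 in GFP-positive cells, from 0.05 to 0.22 between treated fractions and from -0.05 to 0.20 for the interaction, and the GC trend removal moved it from -0.02 to 0.14 between control fractions.

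In the treatment comparisons replicate numbers only share a number (deviations correlated at -0.0164 to 0.134 and -0.0469 to 0.276, and 4 of 6 and 2 of 6 libraries correlated best with their own number). The replicate block left 4 members passing in GFP-positive and 3 in GFP-negative cells, where DELE1 had an adjusted p of 0.0775 and EIF2AK1 of 0.0531. In the sort comparisons, paired by replicate number, the block added LONP1 in controls and OMA1 after treatment and changed no other member's call.

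With all 12 libraries in 1 fit, CLPP was -0.0080 in GFP-positive and OMA1 0.013 in GFP-negative cells. With the GC trend removed, CLPX was -0.24 in GFP-positive cells, CLPP 0.11 between control fractions, LONP1 0.092 and CLPX -0.046 between treated fractions, and the interaction of YME1L1 -0.0095. With the replicate block and the GC trend removed these were -0.25, 0.11, 0.097, -0.043 and -0.012, DNAJA3 was 0.039 in GFP-negative cells and HSPH1 -0.041 in GFP-positive cells, while CLPP passed in GFP-positive cells (0.32, adjusted p = 0.0499). With the replicate block, DNAJA3 was -0.23 between control fractions and the interaction of LONP1 -0.0013. With library size alone, HSPA9 was 0.13 and YME1L1 0.14 between treated fractions, and the interaction of CLPX was 0.15, and with at least 10 counts in every library that of CLPX was 0.039. No cause was tested.

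With a library left out, signs also changed for DNAJA3 (-1.54 to 3.59 in GFP-positive, -0.42 to 0.55 in GFP-negative cells, -2.16 to 1.47 between control and -0.59 to 2.08 between treated fractions, and -1.35 to 3.66 for the interaction). They changed for CLPP in GFP-positive cells (-0.056 to 0.22), and for HSPE1 (-0.74 to 0.32) and OMA1 (-0.14 to 0.058) in GFP-negative cells. Between control fractions they changed for CLPX (-0.010 to 0.33) and DELE1 (-0.031 to 0.11), and between treated fractions for CLPX (-0.033 to 0.22) and YME1L1 (-0.22 to 0.039). For the interaction they changed for HSPE1 (-0.056 to 0.99), HSPA9 (-0.0035 to 0.28), LONP1 (-0.14 to 0.24), CLPX (-0.32 to 0.073), YME1L1 (-0.049 to 0.34) and OMA1 (-0.012 to 0.70). The log2 ratio of CLPX to CLPP ran from -0.10 to 0.25 and that of DELE1 to OMA1 from -0.52 to 0.044 in GFP-positive cells.

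In GFP-positive cells the other proteases went from 6 to 2 with the GC trend removed and to 1 with the block added, the substrates and scaffold genes from 7 to 4 with the GC trend removed and with 12 libraries, and the cytosolic chaperones from 5 to 1, 2 and 3 under those settings. In GFP-negative cells, the partners went from 3 to 5 with DESeq2 and with 12 libraries, the other proteases from 2 to 1 and 0 with the GC trend removed without and with the block, and the translocases from 2 to 1 with the GC trend removed, 4 with DESeq2 and 5 with 12 libraries. The substrates went from 1 to 0 with the block or the GC trend removed and to 2 with library size alone or 12 libraries, the cytosolic chaperones from 1 to 2 with DESeq2, library size alone or 12 libraries, and the general mitochondrial genes from 6 to 2 with the block and 3 with the block and the GC trend removed. With a library left out, in GFP-positive cells the substrates fell to 4 without control replicate 1 or 2 or treated replicate 1 or 3, the translocases from 10 to 6 without control replicate 2, and the cytosolic chaperones to 1 without control replicate 2 and 3 without treated replicate 1. In GFP-negative cells each of the 6 libraries moved at least 1 of these counts, with ranges of 1 to 5 for the partners, 1 to 4 for the other proteases, 0 to 2 for the substrates, 1 to 4 for the translocases, 0 to 2 for the cytosolic chaperones and 2 to 6 for the general genes. The members with the fewest counts were DNAJA3 (2 to 179 per library) and OMA1 (19 to 80), and intervals cover the spread between these cultures only.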
